A study of Mus musculus with 23 samples.

Results

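ACC-only regions were stretches of chromatin listed as enriched for a histone mark in the anterior cingulate cortex (ACC) and in none of the retrosplenial (RSC), lateral entorhinal (LEC) and medial entorhinal cortex (MEC). They were chosen from the full deposited lists of each mark by position: an ACC region on an autosome, 1000 bp or wider, that shared not a single base with any region of the RSC, LEC or MEC list of that mark. ACC regions that overlapped at least 1 of those lists by 1 bp or more were called shared. The choice gave 11297 ACC-only regions out of 92022 ACC regions of that width, 5674 for H3K27ac and 5623 for H3K4me2, and the 8 full lists of the series held 334051 regions. Which regions are ACC-only is therefore a property of the selection, and numbers and widths that follow from it are given as description.

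H3K27ac, acetylation of lysine 27 of histone H3, lies on nucleosomes at active promoters and active enhancers. H3K4me2, dimethylation of lysine 4, lies at promoters and enhancers and can also mark elements that are primed but not acetylated. Enhancers drive transcription from a distance and are used more selectively between tissues than promoters. The ACC is a frontal midline area linked to attention, pain and emotion. The RSC continues the midline cortex to the rear, and both entorhinal areas connect the cortex with the hippocampus. The study asked whether such related areas use different enhancers, which could then drive expression in chosen neurons.

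All groups were C57BL6J mice at postnatal day 56, with no genetic change or treatment named in the labels. Each of the 4 subregions was dissected from both hemispheres, by tissue architecture, from sections of 500 µm. The labels list 23 samples, namely 2 libraries per subregion and mark, except 1 for MEC H3K4me2, and 2 input libraries per subregion. Sex, pooling and the number of animals behind the libraries were not stated (not given in the sources used here). Dissected cortex holds neurons, glia and vessels, so a region may come from any of these, and fewer cells that carry a mark cannot be told apart from less of the mark per cell. The tissue labels were not checked against marker genes.

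There was 1 list per subregion and mark and no value per library, so no spread between animals could be computed and no test across animals was made. Sequencing depth is unknown. The ACC lists were the longest: at 1000 bp or wider they held 43432 H3K27ac regions against 37411, 38898 and 20510 for RSC, LEC and MEC, and 48590 H3K4me2 regions against 41187, 43325 and 16750. List length and depth cannot be told apart from tissue in these comparisons, and the short MEC lists could remove few ACC regions from the ACC-only set.

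Of the 43432 ACC H3K27ac regions, 5674 were ACC-only, which is 13.1% (12.7 to 13.4) and is by construction also the background share of that call. Of the 48590 H3K4me2 regions, 5623 or 11.6% (11.3 to 11.9) were ACC-only. The ACC-only H3K27ac regions covered 11.03 Mb and the shared ones 164.0 Mb. For H3K4me2 the coverage was 9.181 Mb against 145.7 Mb. ACC-only sites were thus a larger part of the regions than of the marked sequence. The other patterns were regions ACC had in common with some or all areas: 27.7% of ACC H3K27ac regions were found in all 4 subregions, 24.1% in ACC, RSC and LEC, 14.4% in ACC and LEC, and 11.5% in ACC and RSC.

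The count depended on which areas ACC was set against. Leaving out LEC raised the ACC-only share to 27.5% for H3K27ac and 24.6% for H3K4me2, and leaving out RSC raised it to 24.5% and 21.8%, while leaving out MEC gave 14.0% and 12.7%. With only as many of the widest ACC regions as RSC had, the shares were 9.27% and 7.99%. This fall is largely fixed by the cut, which drops the narrowest regions, the ones most often ACC-only.

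ACC-only regions were narrow. The median ACC-only H3K27ac region was 1575 bp wide against 2850 bp for shared ones, and the median H3K4me2 region 1350 bp against 2375 bp. Only 12.3% of ACC-only H3K27ac regions reached 3000 bp, against 47.4% of shared ones, and for H3K4me2 it was 6.21% against 38.7%. A wide region has more bases with which to meet a region of another list, so this gap is partly fixed by the way members were chosen. Narrowness was not particular to ACC. Under the same rule, regions found in RSC, LEC or MEC alone had medians of 1600, 1750 and 1875 bp for H3K27ac. For H3K4me2 these were 1250, 1300 and 1525 bp.

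The share that was ACC-only fell with width in both marks and in both classes of region. Among H3K27ac enhancer regions, which are the ones the authors also placed in their ACC enhancer list with the same start and end, it was 34.4% at 1000 to under 1500 bp, 20.4% at 1500 to under 2000 bp, 13.0% at 2000 to under 3000 bp, 7.08% at 3000 to under 5000 bp and 2.10% at 5000 bp and wider. Among excluded regions, which the authors left out of the enhancer list by a rule not given in the sources used here, it went from 36.5% to 1.22%. H3K4me2 went from 25.8% to 1.90% in enhancer regions and from 28.7% to 0.242% in excluded ones. The narrowest regions were the ones in which ACC most often stood alone, whichever class they belonged to.

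**Figure D1:**
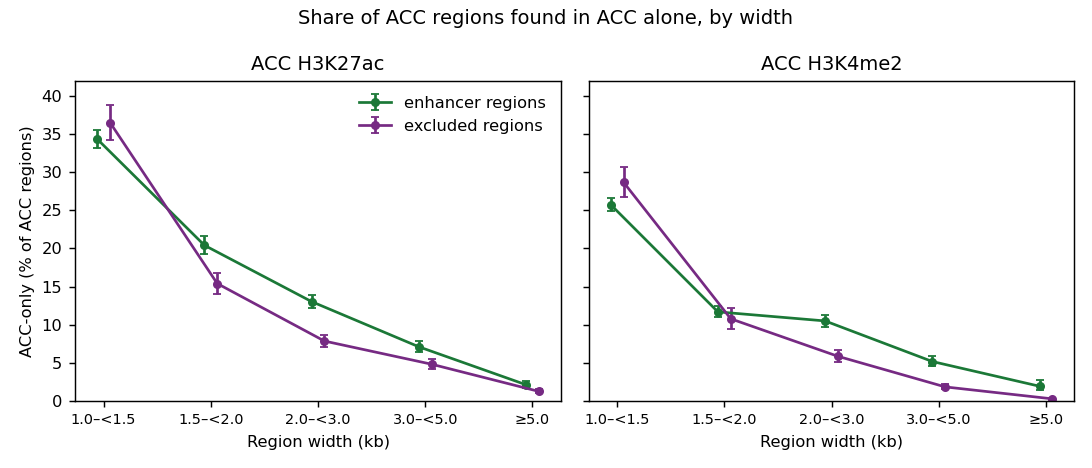
Percentage of ACC regions that were ACC-only (vertical axis) in 5 width classes (horizontal axis, kb), for H3K27ac on the left and H3K4me2 on the right; green marks enhancer regions, purple marks excluded regions, and bars are Wilson 95% intervals. The H3K27ac enhancer share goes from 34.4% in the narrowest class to 2.10% in the widest, and excluded regions lie above enhancer regions only in the narrowest class of each mark.

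The limit of 1000 bp cut through this gradient. ACC H3K27ac regions just under it, at 900 bp or wider, overlapped no other subregion in 887 of 1693 cases (52.4%), and those just over it, in a range of the same length, in 779 of 1759 (44.3%). For H3K4me2 the counts were 1147 of 2294 (50.0%) and 1040 of 2642 (39.4%). Below the limit altogether, 2035 of 3496 H3K27ac regions and 2503 of 4448 H3K4me2 regions would have met the overlap condition. At the other edge of the definition few regions were close calls: 184 ACC-only H3K27ac regions had a region of another subregion within 1000 bp, and 25 shared ones had under 10% of their bases covered.

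Enhancer regions made up more of the ACC-only set than of the shared set. Of the 5674 ACC-only H3K27ac regions, 4002 were enhancer regions and 1672 were excluded, so 70.5% (69.3 to 71.7) were enhancers against 53.6% (53.1 to 54.1) of shared regions. Of the 5623 ACC-only H3K4me2 regions, 4487 were enhancer regions and 1136 excluded, or 79.8% (78.7 to 80.8) against 58.4% (57.9 to 58.9). Both gaps exceed counting error. The excess was not particular to ACC-only regions. Of the regions found in ACC and RSC alone, 75.2% were enhancer regions for H3K27ac and 81.5% for H3K4me2, above the ACC-only shares. The H3K27ac difference of 16.9 percentage points became 5.02 points once shared regions were weighted to the widths of ACC-only ones, and the H3K4me2 difference of 21.4 points became 2.89. In the narrowest class the order turned: 75.9% (74.2 to 77.5) of ACC-only and 77.5% (76.3 to 78.7) of shared H3K27ac regions were enhancer regions, and 82.4% (81.1 to 83.6) and 84.5% (83.7 to 85.2) of H3K4me2 regions. The excess of enhancer regions was thus seen in the wider ACC-only regions, for H3K27ac from 1500 bp up and for H3K4me2 beyond counting error from 2000 bp up, for example 75.9% (72.9 to 78.6) against 62.5% (61.4 to 63.5) at 2000 to under 3000 bp.

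In each width class from 1500 bp up, the H3K27ac enhancer regions were more often ACC-only than the excluded regions, with intervals that did not overlap, for example 13.0% (12.2 to 13.9) against 7.83% (7.11 to 8.63) at 2000 to under 3000 bp. In the narrowest class the order was the other way, 34.4% (33.2 to 35.6) against 36.5% (34.3 to 38.9), with intervals that overlapped. The wide excluded regions of ACC were thus seldom ACC-only, 69 of 5666 H3K27ac and 14 of 5787 H3K4me2 regions of 5000 bp or wider.

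Where an ACC-only H3K27ac region lay, ACC also had H3K4me2 in about every other case. H3K4me2 was not used to choose these regions. It overlapped 2989 of the 5674, or 52.7% (51.4 to 54.0), against 74.7% (74.2 to 75.1) of shared H3K27ac regions and 71.8% of all ACC H3K27ac regions of that width. Among enhancer regions the share was 54.0% (52.4 to 55.5) against 69.2% (68.6 to 69.9), and among excluded regions 49.5% (47.1 to 51.9) against 80.9% (80.3 to 81.5). The other ACC-only regions had acetylation listed in ACC without dimethylation.

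The lower share of H3K4me2 was present in every width class. It was lower at ACC-only than at shared regions in 5 of 5 width classes for enhancer and for excluded regions. At 1000 to under 1500 bp the enhancer shares were 51.6% (49.4 to 53.9) and 55.7% (54.1 to 57.3), and at 5000 bp and wider 69.7% (58.7 to 78.9) and 87.8% (86.7 to 88.8). Excluded regions differed more, with 48.6% against 60.7% in the narrowest class and 58.0% against 90.9% in the widest. The widest class has no upper limit, so widths were not matched within it. ACC-only H3K27ac regions reached 16825 bp and shared ones 148325 bp. At the widths of ACC-only regions the difference was -7.26 percentage points for enhancer regions, -21.5 for excluded regions and -11.97 for all, against -22.0 with widths as found. ACC-only excluded regions had nearly the same share of H3K4me2 from the narrowest class to the class of 2000 to under 3000 bp, 48.6%, 48.7% and 48.3%, while shared ones rose with width.

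The reverse comparison gave a smaller difference, which was slight at equal widths. H3K27ac overlapped 3029 of the 5623 ACC-only H3K4me2 regions, or 53.9% (52.6 to 55.2), against 71.1% (70.6 to 71.5) of shared ones and 69.1% of all ACC H3K4me2 regions of that width. The difference of -17.2 percentage points became -1.32 at equal widths. For enhancer regions it was -3.56 at equal widths, and the narrowest class showed no gap: 44.5% against 43.6% at 1000 to under 1500 bp, 61.6% against 78.0% at 2000 to under 3000 bp and 71.9% against 94.1% at 5000 bp and wider.

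Excluded H3K4me2 regions went the other way. At equal widths, acetylation was listed more often at ACC-only than at shared excluded regions, by 6.84 percentage points, although the unweighted shares were 63.6% and 77.8%. At 1000 to under 1500 bp the shares were 52.3% (48.2 to 56.2) and 43.6% (41.1 to 46.1), and at 1500 to under 2000 bp 72.4% (66.1 to 77.9) and 62.0% (59.8 to 64.2), in both cases with intervals that did not overlap. In the 3 wider classes the intervals overlapped. The narrow ACC-only H3K4me2 sites outside the enhancer list were thus acetylated more often than shared ones with all sharing patterns pooled. They did not differ in this way from excluded regions found in ACC and RSC alone. Those had 63.6% at ACC-only widths, the same as ACC-only regions. Their shares were 49.3% at 1000 to under 1500 bp and 73.6% at 1500 to under 2000 bp. The other sharing patterns lay lower at ACC-only widths, from 49.9% (ACC with MEC) to 59.0% (ACC with RSC and MEC).

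**Figure D2:**
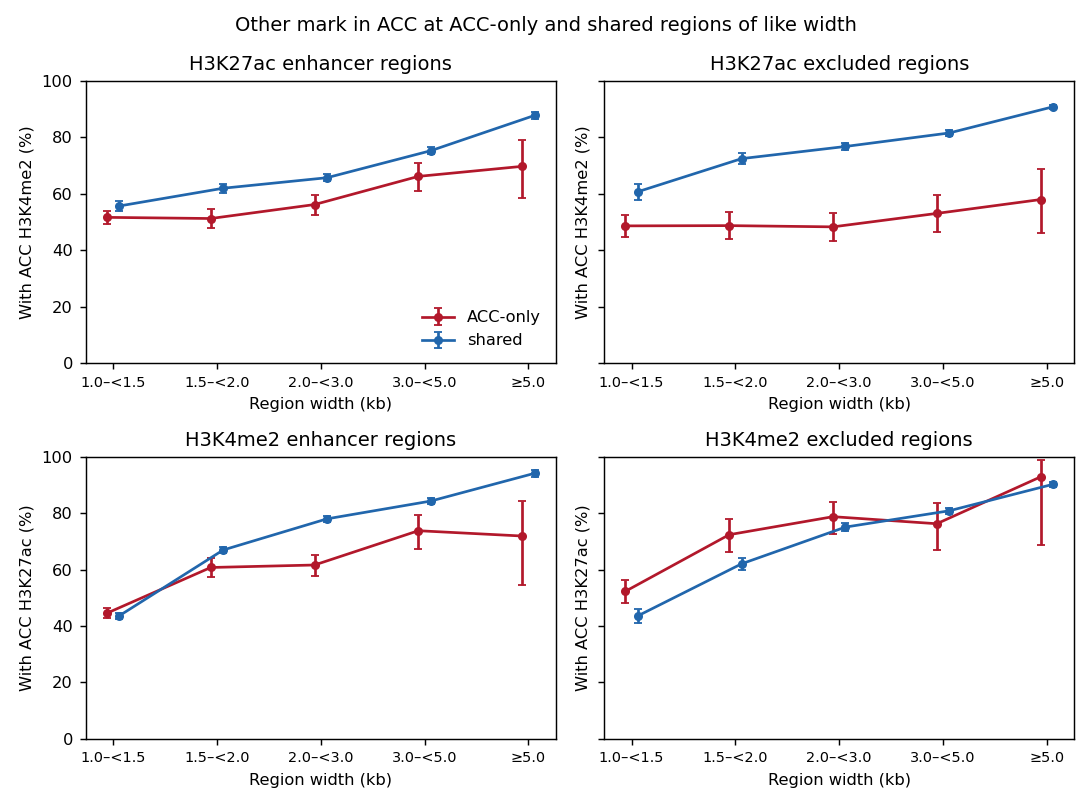
Percentage of ACC regions that overlap a region of the other mark in ACC (vertical axis) by width class (horizontal axis, kb), in 4 panels for enhancer and excluded regions of each mark; red is ACC-only, blue is shared, bars are Wilson 95% intervals. The red line lies under the blue one in all 5 classes for both kinds of H3K27ac region, whereas for excluded H3K4me2 regions it starts above it, at 52.3% against 43.6%.

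Shared regions were not all alike in this respect. H3K27ac regions found in ACC and RSC but neither entorhinal area carried ACC H3K4me2 in 53.1% of 4977 cases (51.7 to 54.5), close to the 52.7% of ACC-only regions with intervals that overlapped. Regions found in ACC and LEC alone carried it in 69.6% of 6265 cases (68.5 to 70.7), although both pair sets had a median width of 2025 bp. At the widths of ACC-only regions the shares were 66.9% for ACC with LEC, 68.2% for ACC with RSC and LEC, 72.7% for ACC with LEC and MEC, and 75.3% for all 4 subregions. For the patterns without LEC they were 50.0% for ACC with RSC, 51.7% for ACC with MEC and 55.98% for ACC with RSC and MEC. With both classes pooled, ACC-only H3K27ac regions, at 52.7%, thus lay among the patterns without LEC and below all patterns with it. Split by class, ACC-only enhancer regions, at 54.0%, lay above the patterns without LEC (ACC with RSC 49.0%, with MEC 42.7%, with RSC and MEC 48.5%). ACC-only excluded regions, at 49.5%, lay below them (53.4%, 66.9% and 73.7%). Both classes stayed below all patterns with LEC. Leaving the LEC list out of the rule, so that regions of ACC and LEC counted as ACC-only, narrowed the overall difference from -22.0 to -14.1 percentage points.

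For H3K4me2, with enhancer and excluded regions pooled, the order was different. H3K27ac overlapped 62.6% (61.3 to 63.95) of the 4959 regions in ACC and RSC alone and 59.1% (57.9 to 60.3) of the 6353 regions in ACC and LEC alone, both above the 53.9% of ACC-only regions. At ACC-only widths they were 58.5% and 53.4%, so that the pair with LEC came level with ACC-only regions.

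Where the marks did overlap, they covered much the same bases. In the 2161 ACC-only H3K27ac enhancer regions with H3K4me2, the median region had 92.0% of its bases inside H3K4me2, with quartiles of 73.8% and 100%, against a median of 80% for shared enhancer regions, which were wider. Among excluded H3K27ac regions the order was the other way, with medians of 93.6% for ACC-only and 97.9% for shared regions. The median H3K4me2 enhancer region with H3K27ac lay wholly inside it, both for ACC-only and for shared regions. For excluded H3K4me2 regions the medians were 100% for ACC-only and 84.3% for shared ones.

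A region counted as ACC-only by acetylation could carry dimethylation in another subregion, though less often than a shared region. H3K4me2 was listed at 54.0% of the 4002 ACC-only H3K27ac enhancer regions by the ACC list. By the LEC list it was 34.7% (33.3 to 36.2), by the RSC list 32.2% (30.7 to 33.6) and by the MEC list 9.62% (8.74 to 10.6). The corresponding shares at shared enhancer regions were 69.2%, 58.6%, 60.2% and 25.9%. ACC thus stood further above RSC and LEC at ACC-only than at shared regions, with widths as found (medians of 1500 and 2500 bp). The second mark had no part in the selection, but the lists of the marks are not taken as independent samples of ACC. The MEC shares go with its short H3K4me2 list, of which 41.8% of regions were under 1000 bp wide and which came from 1 library.

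Taken region by region, 1484 of the 4002 enhancer regions (37.1%) had H3K4me2 in no subregion, against 17.7% of shared enhancer regions. It was in ACC alone at 600 (15.0%, against 6.74%) and in ACC and at least 1 other subregion at 1561 (39.0%, against 62.5%). ACC-only enhancer regions thus had H3K4me2 more often nowhere or in ACC alone, and at equal widths the shared shares were 23.3%, 7.54% and 53.7%. The commonest pattern with another subregion was ACC, RSC and LEC together, with 509 regions, followed by ACC and LEC with 423, ACC and RSC with 324, and all 4 with 185. A further 357, or 8.92%, had H3K4me2 elsewhere but not in ACC. In 1918 of 4002 cases (47.9%, 46.4 to 49.5) some other subregion had H3K4me2 at a site whose acetylation was listed in ACC alone. That share was 75.6% (74.97 to 76.2) at shared enhancer regions and 69.2% when these were weighted to the same widths.

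ACC-only H3K4me2 enhancer regions gave a like picture with the marks exchanged. H3K27ac was listed at 51.4% of the 4487 by the ACC list, and at 30.5%, 29.1% and 7.40% by the LEC, RSC and MEC lists. Shared enhancer regions had 66.2% by the ACC list and 56.9%, 52.5% and 24.0% by the others. In 1839 (41.0%) no subregion had H3K27ac, against 22.6% of shared regions and 32.5% at equal widths. In 694 (15.5%) ACC alone had it, against 7.47% and 8.49%, and in 1613 (35.9%) ACC had it with at least 1 other subregion, against 58.8% and 46.5%. A site could thus be dimethylated in ACC alone and acetylated in several areas, which was so for 534 regions acetylated in ACC, RSC and LEC.

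**Figure D3:**
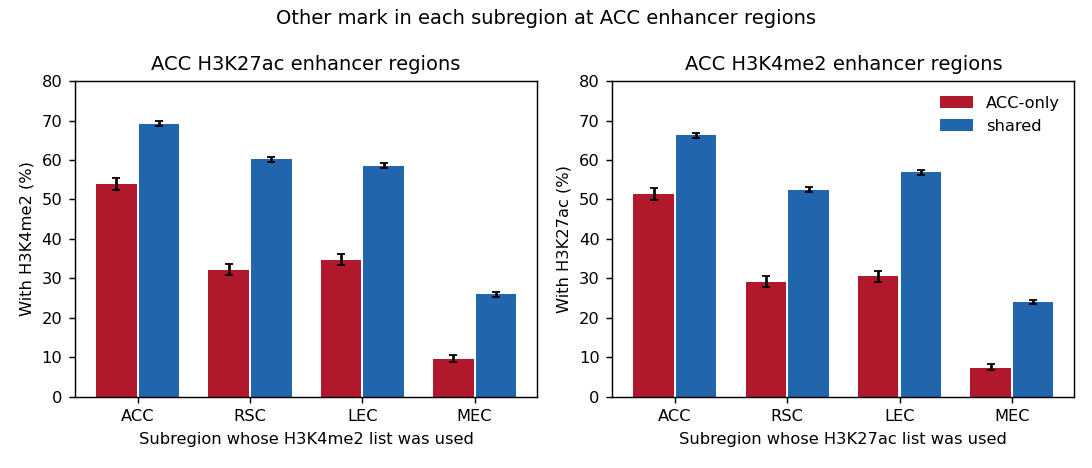
Percentage of ACC enhancer regions that overlap the other mark (vertical axis) in the list of each subregion (horizontal axis), with ACC H3K27ac regions on the left and ACC H3K4me2 regions on the right; red bars are ACC-only, blue bars shared, and error bars are Wilson 95% intervals. At ACC-only H3K27ac enhancer regions the ACC bar stands at 54.0% and the LEC, RSC and MEC bars at 34.7%, 32.2% and 9.62%, while at shared regions ACC, RSC and LEC lie between 58.6% and 69.2%.

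Being ACC-only in a mark went with being ACC-only in the other. Of the 2989 ACC-only H3K27ac regions that overlapped ACC H3K4me2, 793 or 26.5% (24.98 to 28.1) met only H3K4me2 regions that were themselves ACC-only. Among the 28192 shared H3K27ac regions with H3K4me2 the number was 1995, or 7.08% (6.78 to 7.38). Starting from H3K4me2, the shares were 25.1% (23.6 to 26.7) of 3029 and 8.01% (7.71 to 8.32) of 30530. The difference was seen within each width class: from 24.1% against 12.03% at 1000 to under 1500 bp to 39.8% against 4.19% at 5000 bp and wider for H3K27ac. Whether both marks of an area came from the same dissections was not stated, so the lists of the marks are not taken as independent samples of ACC.

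For enhancer regions the share was 27.1% (25.3 to 29.0), or 586 of 2161. By the name rule, the 5 enhancer regions with the most bases ACC-only in both marks were on chromosomes 3, 4, 12 and 17. The first was chr4:125236001-125244125, 8125 bp wide, with 6225 of its bases (76.6%) inside an ACC-only H3K4me2 enhancer region, itself among the widest of that mark at chr4:125233626-125242225 with 8600 bp. The nearest H3K27ac region of another area lay 12.35 kb away, in LEC, and the nearest in RSC and MEC 22.45 and 60.12 kb away. Neither mark was listed there in RSC, LEC or MEC. The rule fixes this for H3K27ac, and for H3K4me2 over the bases inside the ACC-only H3K4me2 region.

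The others likewise had neither mark listed in another area, with the same limit. At chr3:105204951-105212500, 6100 of 7550 bp carried both marks in ACC, and the closest acetylated region elsewhere was 23.93 kb away in LEC. At chr17:31860476-31868325 it was 5975 of 7850 bp, at chr4:117914751-117920975 5525 of 6225 bp (88.8%), and at chr12:113524776-113531700 5250 of 6925 bp. The chromosome 17 region lay 2900 bp from the nearest region of either mark in another area. Each of these 5 was far wider than the median ACC-only enhancer region of 1500 bp.

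The widest ACC-only regions differed among themselves in the second mark. The widest H3K27ac enhancer region, chr1:94146576-94157075, was 10500 bp long and had no H3K4me2 in any of the 4 subregions. Its nearest acetylated neighbours in the other lists were a LEC region 24.38 kb away, an RSC region at 33.05 kb and a MEC region at 37.85 kb. By contrast, chr14:31080476-31090700, 10225 bp wide, had H3K4me2 over 6275 bases in ACC, LEC over 4575 and RSC over a slightly longer stretch. Acetylation was listed there in ACC alone, and dimethylation in 3 of the 4 areas.

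The other 3 of the 5 widest H3K27ac enhancer regions were also unlike each other. At chr12:113451551-113461525, 9975 bp wide, H3K4me2 covered 6325 bases in ACC and 3050 in LEC. At chr11:83193176-83202425, 9250 bp wide, H3K4me2 was listed in LEC, over 3125 bases, and not in ACC. A LEC H3K27ac region lay 1250 bp from its edge. At chr17:29198826-29208000, 9175 bp wide, it covered 6800 bases in ACC and 1500 in LEC, and RSC and LEC had H3K27ac regions of their own 1350 and 1400 bp from the edge. The last region is therefore ACC-only by a short distance, and would count as shared if gaps of up to 1350 bp were bridged.

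Among excluded H3K27ac regions the widest was chr12:120078476-120095300, at 16825 bp. It was dimethylated in ACC over its whole length, with shorter H3K4me2 stretches of 5875 bases for RSC, 1825 for LEC and 500 for MEC. The nearest acetylated region was 128.1 kb away for RSC, 306.9 kb for LEC and 352.8 kb for MEC. Of all regions named by width, it had the longest gaps to the other lists of its mark. The next widest, chr11:107847451-107861050 with 13600 bp, had no H3K4me2 in any area and a LEC H3K27ac region 1525 bp away. At chr4:45827901-45840225, 12325 bp wide, ACC H3K4me2 covered 10700 bases, and that of LEC, RSC and MEC covered 5050, 1325 and 1250.

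The widest ACC-only H3K4me2 enhancer region, chr2:83682301-83692250, was 9950 bp wide and wholly acetylated in ACC, with 2475 acetylated bases in RSC, 2600 in MEC and none in LEC. The region chr13:108651351-108659150, 7800 bp wide, and chr9:58661476-58667750, 6275 bp wide, had no H3K27ac in any area. At chr17:27619776-27626325, 6550 bp wide, ACC acetylation reached 475 bases. So 3 of the 5 widest had acetylation in ACC, and of these 3 the region on chromosome 2 was the only one acetylated elsewhere.

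The 3 widest excluded H3K4me2 regions were all acetylated in other areas too. At chr6:113786176-113795575, 9400 bp wide, H3K27ac covered the whole region in ACC, 9225 bases in LEC and 5575 in RSC. At chr9:57650126-57658650, 8525 bp wide, it covered 7650 bases in ACC, 3300 in LEC and 1350 in RSC. At chr15:79553401-79559975, 6575 bp wide, it covered the whole region in ACC and in LEC and 2650 bases in RSC. None of these 3 had MEC acetylation, and each had an H3K4me2 region of LEC within 4475 bp of its edge.

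ACC-only regions were spread over all 19 autosomes. The H3K27ac share ran from 10.98% (9.86 to 12.2) of 2695 regions on chromosome 7 to 15.04% (13.4 to 16.8) of 1715 on chromosome 16. The intervals of 17 of the 19 autosomes held the genome share, all but those of these extremes. The chromosomes also differed in makeup, since 49.1% of the regions on chromosome 7 and 60.5% of those on chromosome 16 were enhancer regions. Within enhancer regions the shares were 14.4% (12.6 to 16.4) and 18.2% (16.0 to 20.7), with intervals that overlapped.

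For H3K4me2 the lowest share was 9.55% (8.34 to 10.9) of 2000 regions on chromosome 15 and the highest 13.6% (12.3 to 15.0) of 2423 on chromosome 12. Here 14 of 19 intervals held the genome share. The highest chromosome by H3K27ac was also above the genome share by H3K4me2, with 13.3% (11.9 to 14.9) on chromosome 16, whereas chromosome 7 had 11.6% (10.4 to 12.8) and was not low. No autosome lacked ACC-only regions, and the fewest were 134 for H3K27ac and 132 for H3K4me2, both on chromosome 19.

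**Figure D4:**
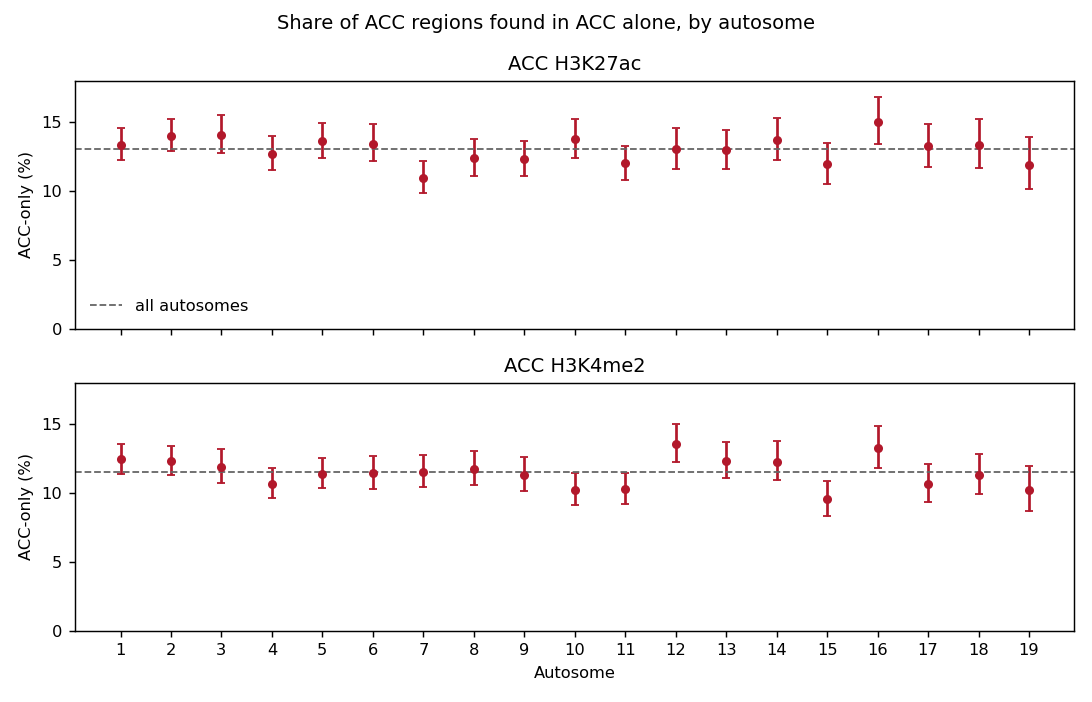
Percentage of ACC regions that were ACC-only (vertical axis) on each of the 19 autosomes (horizontal axis), H3K27ac above and H3K4me2 below; points carry Wilson 95% intervals and the dashed line is the share over all autosomes. Shares lie between 10.98% and 15.04% for H3K27ac and between 9.55% and 13.6% for H3K4me2.

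ACC-only regions were not far from regions of the other areas. The median gap from an ACC-only H3K27ac region to the nearest H3K27ac region of RSC, LEC or MEC was 6838 bp, with quartiles of 3000 and 16550 bp. By area it was 9500 bp for LEC, 10662 bp for RSC and 27500 bp for MEC, an order that follows the lengths of the lists. For H3K4me2 the median was 6450 bp. Within 50 kb, 353 ACC-only H3K27ac regions (6.22%) and 213 H3K4me2 regions (3.79%) had no region of another area, and most members therefore lay in neighbourhoods that other areas also marked.

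Their spacing to other ACC regions was close to that of shared regions. The nearest other ACC H3K27ac region was a median of 6525 bp away, against 5825 bp for shared regions, and 6925 bp against 6900 bp for H3K4me2. ACC-only H3K27ac enhancer regions lay a median of 30525 bp from the nearest excluded ACC region and shared ones 30250 bp, and for H3K4me2 the medians were 32100 and 32175 bp.

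Most ACC-only enhancer regions had no other ACC-only enhancer region of their mark within 50 kb. Few were far from all ACC regions of the mark. Only 8.02% of H3K27ac and 5.77% of H3K4me2 members had none of any kind within 50 kb. Chained at gaps of up to 50 kb, the 4002 H3K27ac enhancer regions formed 3205 spans, of which 2627 held a single region, 578 held 2 or more and 14 held 5 or more. The 4487 H3K4me2 regions formed 3574 spans, with 2906 single and 19 of 5 or more. The largest span of either mark held 8 regions. No test of clustering was made. The spans described next were picked for holding the most ACC-only regions of a mark. A lead of ACC over the other areas in that mark is therefore largely fixed by the choice and is given as description.

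The largest H3K27ac span, chr4:139471976-139697525, was 225.6 kb long and densely marked in all areas. ACC had 24 H3K27ac regions there over 98.53 kb, LEC 14 over 48.73 kb, RSC 11 over 27.80 kb and MEC 7 over 19.57 kb. H3K4me2 did not follow this order, with 13 regions in ACC and 17 in LEC, and overlapped 2 of the 8 ACC-only regions.

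The next span, chr5:125392826-125478475, was 85.65 kb long and sparsely marked outside ACC. It held 9 ACC H3K27ac regions over 24.48 kb, 7 of them ACC-only, against 2 of RSC over 3.40 kb, 2 of LEC over 4.63 kb and no MEC region. H3K4me2 regions numbered 6 for ACC and 4, 2 and 1 for LEC, RSC and MEC, and overlapped 4 of the 7 ACC-only regions, 2 of them with H3K4me2 that was also ACC-only. In the third, chr10:41711051-41873150, ACC had 11 H3K27ac regions against 4, 3 and 1 for LEC, RSC and MEC, while H3K4me2 was nearly level between ACC, LEC and RSC, with 6, 7 and 6 regions, and MEC had 1.

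**Figure D5:**
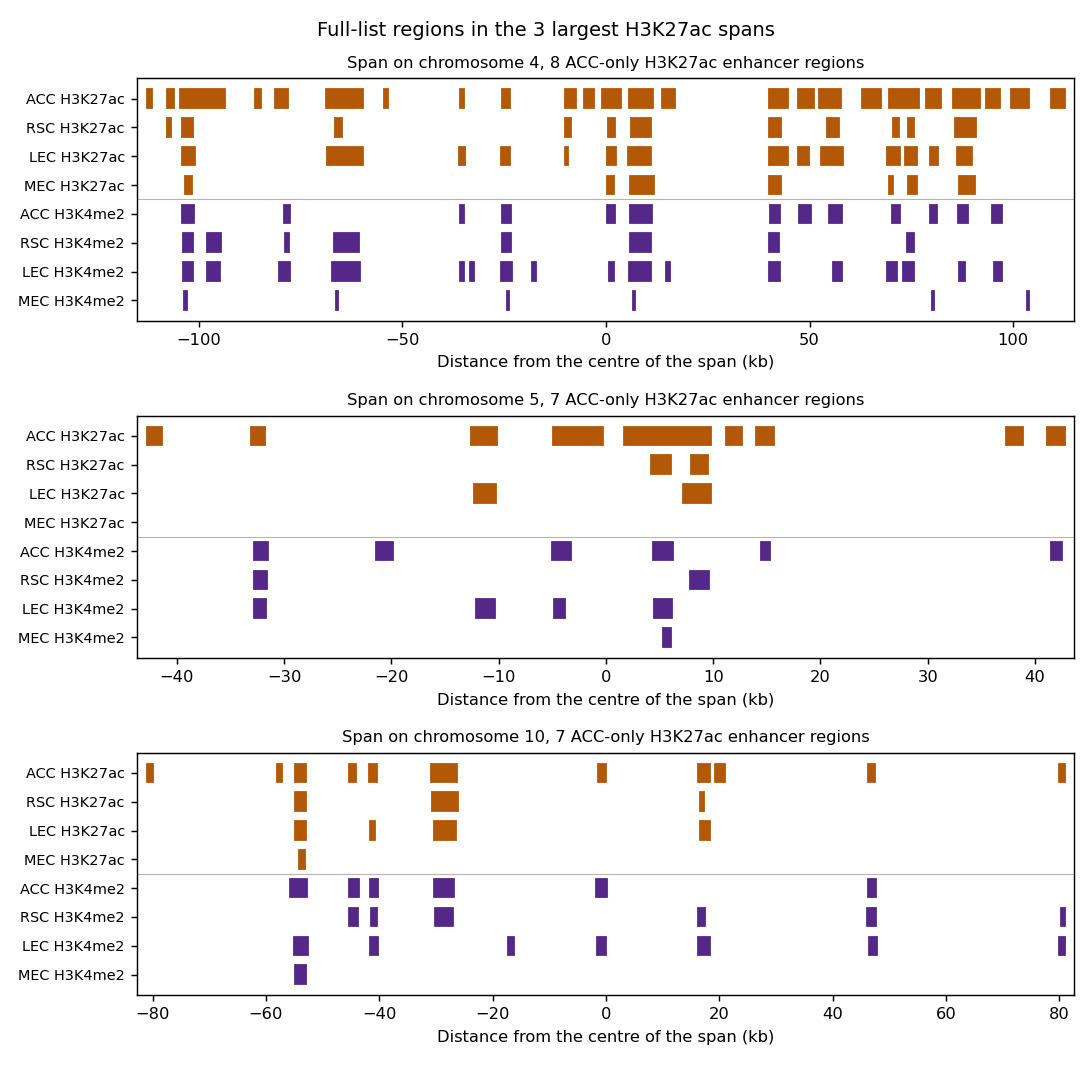
Positions of full-list regions of both marks (orange H3K27ac, purple H3K4me2) in each of the 4 subregions (rows) along the 3 spans with the most ACC-only H3K27ac enhancer regions, as distance from the centre of the span in kb (horizontal axis). The ACC H3K27ac row is the fullest in each panel, with 24, 9 and 11 regions, and on the chromosome 5 span RSC and LEC have 2 each. The choice of spans favours this lead of ACC in H3K27ac.

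H3K4me2 had its largest span at chr16:30934301-31077325, 143.0 kb long with 8 ACC-only enhancer regions. ACC had 17 H3K4me2 regions, LEC 11, RSC 8 and MEC 2, whereas H3K27ac regions numbered 12 in ACC, 15 in LEC and 13 in RSC. By length, H3K27ac covered 61.60 kb in ACC, 57.60 kb in LEC and 58.90 kb in RSC. Acetylation overlapped 6 of the 8 members there, and in no case was it ACC-only. At chr4:139910551-140039225 ACC had 12 H3K4me2 regions against 4, 3 and 1 for LEC, RSC and MEC. H3K27ac regions there numbered 5 in each of ACC, LEC and RSC and 7 in MEC. They covered 66.47, 15.50, 25.10 and 32.38 kb in that order. At chr7:30209451-30298850 the ACC, LEC, RSC and MEC counts were 14, 9, 4 and 0 for H3K4me2 and 10, 6, 4 and 0 for H3K27ac. ACC thus had the most regions in both marks, of which only H3K4me2 was used to choose the span.

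The same rule applied to the other areas gave lower shares. RSC-only regions were 8.55% (8.27 to 8.84) of RSC H3K27ac regions, LEC-only 9.83% (9.53 to 10.1) and MEC-only 4.69% (4.40 to 4.983), against 13.1% in ACC. For H3K4me2 they were 6.71%, 7.85% and 0.758%, against 11.6%. The order followed the lengths of the lists in both marks. With only the widest ACC regions kept, as many as RSC had, the ACC shares were 9.27% and 7.99%. That cut drops the narrowest ACC regions, which were most often ACC-only, while the RSC list kept its narrow ones. The fall is thus largely fixed by the cut, and an effect of list length was not tested. Enhancer regions made up 2727 of 3200 RSC-only, 2959 of 3822 LEC-only and 826 of 961 MEC-only H3K27ac regions. Each is a larger part than the 4002 of 5674 in ACC. For H3K4me2 the counts were 2387 of 2765, 2740 of 3399 and 72 of 127, against 4487 of 5623 in ACC.

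ACC-only H3K27ac regions carried their own area's H3K4me2 more often than RSC-only regions did, 52.7% against 31.5% (29.9 to 33.1), and about as often as LEC-only regions, 50.5% (49.0 to 52.1). MEC-only regions had it in 16.6% (14.4 to 19.1). With the marks exchanged, RSC and LEC changed places: H3K27ac lay at 53.9% of ACC-only H3K4me2 regions, 52.2% (50.3 to 54.05) of RSC-only, 43.2% (41.5 to 44.9) of LEC-only and 37.8% (29.8 to 46.5) of the 127 MEC-only regions. For H3K27ac regions, a lower share at regions found in a single area than at shared ones was thus seen in all 4 subregions: the shares at shared regions were 74.7% for ACC, 70.3% for RSC, 74.3% for LEC and 66.1% for MEC. ACC-only H3K27ac regions with H3K4me2 were in turn less often alone in both marks, 26.5% (24.98 to 28.1), than those of RSC, 34.9% (31.98 to 37.8), or LEC, 30.5% (28.5 to 32.6), with intervals that did not overlap. Starting from H3K4me2 the order against RSC was the opposite, 25.1% (23.6 to 26.7) in ACC against 21.4% (19.4 to 23.6) in RSC, while LEC was again above ACC with 38.2% (35.7 to 40.7).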

How the data were processed

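Per the labels, chromatin immunoprecipitation of H3K27ac and H3K4me2 was sequenced from dissected mouse cortex. The authors deposited lists of enriched regions as start and end positions, and the score column, where a list had one, repeated the width. The submitters' processing notes name Bowtie 1.1.1, bedtools 2.19.0 and the build mm9. How peaks were called and libraries combined was left unstated (not given in the sources used here).

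Of 17 lists, 16 were used, since 1 was an identical copy of another (MEC H3K27ac enhancers). Overlaps were computed with Python 3.11.15 and numpy 2.4.6 and drawn with matplotlib 3.10.9. Member counts equalled those of bedtools 2.31.1 (5674 and 5623), and the steps were tested on simulated lists. Positions are 1-based in mm9. Brackets hold Wilson 95% intervals of counting error, with nothing on differences between animals. The 5 width classes started at 1000, 1500, 2000, 3000 and 5000 bp. Width-matched shares of shared regions were weighted over these classes to the widths of ACC-only regions. Widths could still differ within a class. The members and lists were chosen with earlier results of these data known. Regions were named by a fixed rule: per mark the 5 widest enhancer and 3 widest excluded regions, the 5 H3K27ac enhancer regions with most bases in ACC-only H3K4me2 enhancer regions, the 3 spans holding most ACC-only enhancer regions, and the autosomes with the highest and lowest share. The gene tables at hand were of another build, so genes and sequences were not analysed here.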

Additional observations from a re-analysis of the deposited data

Results flagged for a closer look

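The X chromosome lay outside the selection, which was limited to autosomes, and carried ACC-only regions as well. There were 165 ACC-only H3K27ac regions of 1000 bp or wider on it, out of 1231 (13.4%, 11.6 to 15.4), and 119 of them were enhancer regions. For H3K4me2 there were 167 out of 1256 (13.3%, 11.5 to 15.3), of which 137 were enhancer regions. The other mark was listed in ACC at 48.5% (41.0 to 56.1) of the H3K27ac regions and 43.7% (36.4 to 51.3) of the H3K4me2 regions, against 52.7% and 53.9% on the autosomes. The second of these intervals lies below the autosomal share.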

How the results depend on the processing

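Each of 6 results was recomputed under 10 alternatives. Of these 60 values, 20 stayed within counting error, 37 moved beyond it and 3 changed direction. In the order used here, the base values were 13.1% and 11.6% ACC-only (H3K27ac, H3K4me2), -22.0 and -17.2 points for the other mark at ACC-only minus shared regions (same order), 16.9 points for the H3K27ac enhancer share, and 26.5% alone in both marks. All 3 changes of direction came with the enhancer lists of the other areas in place of the full ones: 0.245, 1.36 and -65.7 points, beside shares of 47.7% and 42.8% and 77.2% alone in both marks. Excluded regions of ACC then have few counterparts to meet, by construction. When at least 50% of a region had to be covered to count as shared, the values were 17.8%, 15.6%, -17.4, -12.7, 14.0 and 31.98%. When a gap of 1000 bp was bridged, the shares were 12.6% and 11.3%. No minimum width gave 16.4%, 15.3%, -24.9, -22.4 and 19.0, and a minimum of 2000 bp gave 6.27%, 4.52%, -14.5 for H3K27ac at H3K4me2 regions and 29.3% alone in both marks. Without MEC the shares were 14.0% and 12.7%. Without LEC the values were 27.5%, 24.6%, -14.1, 15.3 and 39.5%, and without RSC 24.5%, 21.8%, -25.1, -14.2, 22.4 and 42.3%. Keeping only the widest ACC regions, as many as RSC had, gave shares of 9.27% and 7.99%. It also gave -13.3 for H3K27ac at H3K4me2 regions and 28.4% alone in both marks. Sex chromosomes moved nothing beyond counting error. Equal widths, an alternative chosen after seeing the data, gave -12.0, -1.32 and 5.02 points, and 2.89 in place of 21.4 points for the H3K4me2 enhancer share.

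No paired analysis was possible because the lists hold no value per library. Leaving out a library could not be run for the same reason. Depth behind each list is unknown, and a region missing from a list cannot be told apart from an undetected one. Intervals carry no variation between animals. Region calls of neighbouring sites are not independent.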

Other observations

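ACC was also the area missing from elements that the other areas had in common. Merging the RSC, LEC and MEC regions of a mark gave 13612 H3K27ac elements to which all 3 contributed, and 1677 of them (12.3%, 11.8 to 12.9) overlapped no ACC region. Their median width was 3000 bp. For H3K4me2 it was 2036 of 17170 (11.9%, 11.4 to 12.4). RSC was missing from 10.8% and 12.6% of the elements of the other areas, LEC from 14.8% and 12.8%, and MEC from 45.9% and 43.3%. Each share refers to its own set of elements, those common to the other areas. The longest lists thus did not make ACC complete. For H3K27ac the share ACC lacked was above that of RSC, whose interval was 10.3 to 11.4, and below that of LEC. For H3K4me2 ACC lacked the smallest share, with an interval that overlapped those of RSC (12.1 to 13.1) and LEC (12.3 to 13.3).

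A stricter set of ACC regions had neither mark in any other area. Among ACC-only H3K27ac regions, 3019 of 5674 (53.2%) overlapped no H3K4me2 region of RSC, LEC or MEC either, and 821 of these had H3K4me2 in ACC. The share was 18.1% at shared H3K27ac regions and 26.1% when these were weighted to the same widths. Of ACC-only H3K4me2 regions, 3089 of 5623 (54.9%) overlapped no H3K27ac region elsewhere, with 887 acetylated in ACC, against 23.1% of shared regions and 40.6% at equal widths. Only 54 H3K27ac and 117 H3K4me2 members were more than 50 kb from both marks of every other area.

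The remotest of these with both marks in ACC were picked after their values were seen. The H3K27ac enhancer region chr12:111068001-111070375, 2375 bp wide, lay 78150 bp from the nearest region of either mark elsewhere, and the H3K4me2 enhancer region chr12:111068401-111069900, wholly acetylated in ACC, lay inside it. The H3K4me2 enhancer region chr6:82187551-82188725, 1175 bp wide with 725 acetylated bases, lay 117000 bp from either mark elsewhere, and chr15:52396576-52397625, 1050 bp wide, lay 105625 bp away.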
